A study of Mus musculus with 29 samples.

Results

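The Hox genes encode homeodomain transcription factors that lie in 4 clusters, HoxA to HoxD, in the mouse genome. They were taken here as the rows whose symbol is Hox, a cluster letter from a to d and a number, which gave 39 protein-coding genes of 25239 genes listed in each of 8 RNA-seq count tables. Members at the same place in different clusters form a paralogue group, and the groups are numbered from 1 to 13. Within a cluster the low-numbered genes are active nearest the head and the high-numbered genes nearest the tail. In the developing nervous system the Hox genes are known for setting the identity of hindbrain segments and of spinal cord levels, and midbrain and forebrain lie in front of that territory. The chromatin regulators of the Polycomb group are known to keep silent Hox clusters off, and those of the Trithorax group to keep active ones on.

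The libraries are of poly(A) RNA from dissected tissue of E11.5 mouse embryos and form 4 groups of 2: wild-type midbrain, hs654 knockout midbrain, wild-type forebrain and hs267-853 knockout forebrain. The knockouts are of developmental enhancers, each measured in 1 tissue only, and RNA-seq of knockout against wild type asked which genes differ in expression. Whether hs267-853 stands for 1 deleted enhancer or more is not given in the sources used here. Each replicate is a pool of several samples of one tissue and genotype, and neither the strain nor the extent of the deletions is given in the sources used here. A deleted enhancer is no row of the count tables, so the counts cannot check the genotype. In bulk tissue, fewer cells of a type and less RNA per cell cannot be told apart. The other 21 samples of the series, of chromatin contacts, were not used here.

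Almost no reads were counted in the Hox genes of either tissue. Of the 312 values of 39 genes in 8 libraries, 269 (86.2%) were 0, 22 were 1, 15 were 2 or 3, and 6 were above 3. The highest single value was 7 counts. All Hox genes together received 17, 10, 9 and 6 counts in the midbrain libraries (wild type 1 and 2, then hs654 knockout 1 and 2) out of 15780983, 12367394, 11476052 and 9051632 counts in genes. In forebrain they received 13, 10, 3 and 22 counts (wild type 1 and 2, then hs267-853 knockout 1 and 2) out of 14872668, 13026016, 18024406 and 15311926. The same order of libraries is used throughout. Pooled over 4 libraries, the summed level was 0.863 CPM (counts per 1000000 counts in genes) in midbrain (exact 95% Poisson interval 0.622 to 1.17) and 0.784 CPM in forebrain (0.578 to 1.04), so the tissues overlapped. These intervals cover counting error only. The deepest library, hs267-853 knockout replicate 1, had the fewest Hox counts, and without it the forebrain level was 1.04 CPM (0.760 to 1.39). Without hs267-853 knockout replicate 2, which had the most, it was 0.566 CPM (0.370 to 0.830).

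**Figure D1:**
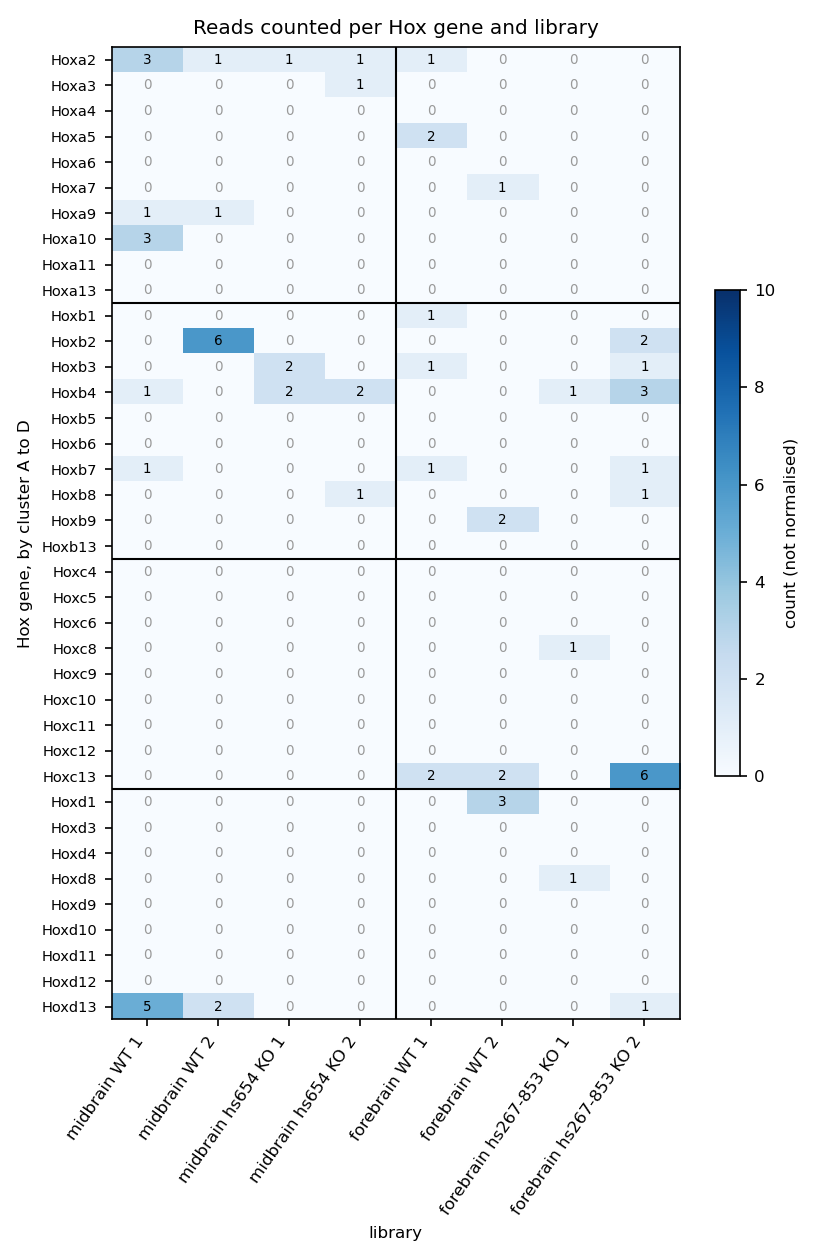
Reads counted per Hox gene (rows, by cluster A to D) and library (columns, midbrain left of the vertical line and forebrain right of it), with the count printed in each cell and shown by colour. Most cells hold 0, and the HoxC block is empty in all 4 midbrain libraries.

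No Hox gene reached a level in midbrain, where a level means more than 3 counts in at least 2 of the 4 libraries of a tissue. In forebrain 1 of 39 did, and 0 did without wild-type replicate 1 or without hs267-853 knockout replicate 2. Of all 25239 genes, 64.2% reached a level in midbrain and 64.2% in forebrain. In any single library 0 to 2 Hox genes were above 3 counts, against 61.9% to 64.9% of all genes. A count of 0 in a library allows up to 3 counts, which was 0.166 to 0.331 CPM depending on its depth. Pooled over the 4 midbrain libraries 28 Hox genes had 0 counts, which allows each up to 0.0616 CPM, and 23 had 0 in forebrain, which allows up to 0.0490 CPM. In all 8 libraries together 20 Hox genes (51.3%) had 0 counts and a bound of 0.0273 CPM. Among 20745 genes that RefSeq names protein-coding, 17.0% had 0 counts in all 8 libraries, and among all genes 19.8% had.

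Promoters of 4 members are shown to give the range of base composition among genes that were hardly counted or not counted at all. The 250 bases before the start are given 5′ to 3′ on the gene's strand, from RefSeq on GRCm38.p6, with each CpG dinucleotide in capitals. Hoxa13 (chr6:52260881-52261130, minus strand) had 0 counts in every library and Hoxd13 (chr2:74667975-74668224, plus strand) had 8 in all. Hoxa2 (chr6:52164832-52165081, minus strand) is the member counted in all 4 midbrain libraries, and Hoxd11 (chr2:74679308-74679557, plus strand) had 0 everywhere.
Hoxa13: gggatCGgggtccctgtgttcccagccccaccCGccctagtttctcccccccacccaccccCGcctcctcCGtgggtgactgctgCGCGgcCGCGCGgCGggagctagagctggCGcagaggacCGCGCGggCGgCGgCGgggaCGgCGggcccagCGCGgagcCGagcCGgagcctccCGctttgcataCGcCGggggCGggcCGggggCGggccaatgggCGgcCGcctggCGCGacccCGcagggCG
Hoxd13: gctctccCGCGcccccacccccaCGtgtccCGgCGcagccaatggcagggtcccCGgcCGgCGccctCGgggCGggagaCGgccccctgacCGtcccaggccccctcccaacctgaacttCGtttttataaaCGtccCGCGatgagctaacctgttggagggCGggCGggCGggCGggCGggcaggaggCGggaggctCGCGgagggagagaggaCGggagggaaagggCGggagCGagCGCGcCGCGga
Hoxa2: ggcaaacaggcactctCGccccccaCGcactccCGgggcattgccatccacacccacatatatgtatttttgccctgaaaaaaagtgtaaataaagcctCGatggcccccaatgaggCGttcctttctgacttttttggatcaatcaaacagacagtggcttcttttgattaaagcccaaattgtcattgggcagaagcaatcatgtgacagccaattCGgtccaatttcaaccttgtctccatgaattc
Hoxd11: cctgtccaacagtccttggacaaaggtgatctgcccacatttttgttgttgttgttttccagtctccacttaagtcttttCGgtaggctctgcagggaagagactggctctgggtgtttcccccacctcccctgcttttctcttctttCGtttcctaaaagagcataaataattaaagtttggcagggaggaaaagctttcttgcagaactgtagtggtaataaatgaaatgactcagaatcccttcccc

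These 4 stretches hold 35, 31, 6 and 2 CpG dinucleotides and are 80.0%, 74.4%, 46.4% and 44.8% G or C. RefSeq gave a promoter for 22 of the 39 Hox genes. In the 300 bases from 250 before to 50 after the start they held a median of 13.5 CpG (4 to 45). The other 5204 genes with at most 3 counts in every library held a median of 2, and the 11360 genes with more than 3 counts in every library held 21. The ratio of observed to expected CpG was above 0.6 in 10 of the 22 Hox promoters (45.5%), in 4.61% of the other genes with at most 3 counts and in 71.4% of the counted genes. Hox promoters therefore lay between those classes, with a wide range within the family. They were also near the values over all 18651 promoters, a median of 13 CpG and 47.6% above 0.6. The letters TGATNNAT, one form of the site that Pbx and Hox proteins bind together, occurred on either strand in 3 of 22 Hox promoters (Hoxa2, Hoxb1 and Hoxb8, 13.6%) in 7.64% of all 18651 promoters and in 15.6% of those of the other genes with at most 3 counts. The letters TATAAA occurred in 3 (Hoxb8, Hoxd4 and Hoxd13, 13.6%) in 2432 of all 18651 and in 26.1% of that class. Neither set of letters contains the other. A match is a description of the letters and not a bound site.

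**Figure D2:**
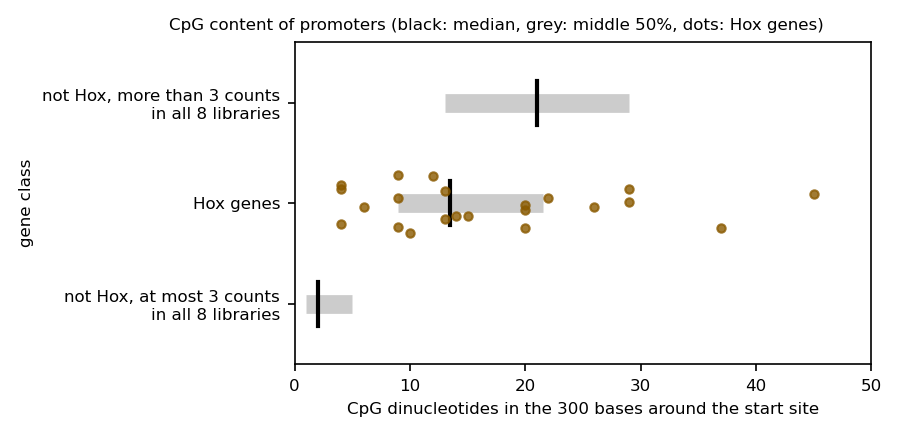
CpG dinucleotides in the 300 bases around the start (x axis) for 3 classes of genes (y axis). The black line is the median, the grey bar the middle 50% and each dot a Hox gene. The Hox median of 13.5 lies between the medians of 2 and 21. The median over all 18651 promoters, 13, is not drawn.

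The anterior genes, of groups 1 to 4, held most of what was counted in midbrain. Hoxa2, the Hox gene with the most anterior limit in the hindbrain, had 3, 1, 1 and 1 counts in midbrain and 1, 0, 0 and 0 in forebrain. It was the one Hox gene with a count in all 4 midbrain libraries, yet never with more than 3. It overlaps no other listed gene. Hoxb2, its paralogue, had 0, 6, 0 and 0 counts in midbrain and 0, 0, 0 and 2 in forebrain. Its midbrain counts came from 1 wild-type library. Hoxb1, a marker of a single hindbrain segment, had 0 counts in midbrain and 1, 0, 0 and 0 in forebrain, and Hoxd1 had 0 in midbrain and 0, 3, 0 and 0 in forebrain.

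Among group 3, Hoxa3 had 1 count in 1 midbrain library, Hoxb3 had 0, 0, 2 and 0 in midbrain and 1, 0, 0 and 1 in forebrain, and Hoxd3 had none. Of group 4, Hoxb4 alone was counted. It had 1, 0, 2 and 2 counts in midbrain and 0, 0, 1 and 3 in forebrain, so the tissues overlapped. Hoxb4 overlaps Hoxb3, and how reads in shared stretches were assigned is not given in the sources used here. Hoxa4, Hoxc4 and Hoxd4 had 0 counts in all 8 libraries.

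The central genes, of groups 5 to 8, which are known for patterning the neck and trunk, were close to empty. In midbrain only Hoxb7 and Hoxb8 had a count, of 1 in 1 library each. In forebrain Hoxb7 had 1, 0, 0 and 1, Hoxa5 had 2 in 1 library, and Hoxa7, Hoxb8, Hoxc8 and Hoxd8 had 1 in 1 library each. Hoxa6, Hoxb5, Hoxb6, Hoxc5 and Hoxc6 had 0 counts in all 8 libraries. No group 6 gene was counted in any library.

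The posterior genes, of groups 9 to 13, known for patterning the lower trunk, limbs and tail, were as sparse, with the exception of group 13. Hoxd13 had 5, 2, 0 and 0 counts in midbrain and 0, 0, 0 and 1 in forebrain, so its midbrain counts came from both wild-type libraries and neither knockout library. Hoxc13 had 0 counts in every midbrain library and 2, 2, 0 and 6 in forebrain. Its forebrain count was also 0 in 1 library, so the libraries of the tissues were not separated. Pooled by tissue, its exact Poisson intervals were 0 to 0.0758 CPM in midbrain and 0.0783 to 0.300 CPM in forebrain, without overlap. Those intervals cover counting error only, and 6 of its 10 forebrain counts came from 1 library. Hoxd13 and Hoxc13 lie across no other listed gene. In midbrain Hoxa9 had 1, 1, 0 and 0 and Hoxa10 had 3, 0, 0 and 0, and in forebrain Hoxb9 had 0, 2, 0 and 0. The other posterior members (Hoxa11, Hoxa13, Hoxb13, Hoxc9 to Hoxc12 and Hoxd9 to Hoxd12) had 0 counts in all 8 libraries.

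By paralogue group, the midbrain counts summed over 4 libraries were 12, 3 and 5 in groups 2 to 4. They were 0, 0, 1 and 1 in groups 5 to 8, and 2, 3, 0, 0 and 7 in groups 9 to 13. No paralogue group reached a level in midbrain, and 1 of 13 did in forebrain. Group 2 had the most counts in midbrain, 0.247 CPM (0.127 to 0.431), and 0.0490 CPM in forebrain (0.0101 to 0.143). Those intervals overlapped. Groups 6, 11 and 12 had 0 counts in both tissues. Forebrain sums were 3, 2 and 4 in groups 2 to 4, 2, 0, 3 and 3 in groups 5 to 8, and 2, 0, 0, 0 and 11 in groups 9 to 13. Counting a single read in at least 2 of 4 libraries as a level would admit 5 genes in midbrain, Hoxa2, Hoxa9, Hoxb4 and Hoxd13 among them, while 72.2% of all genes pass that rule.

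**Figure D3:**
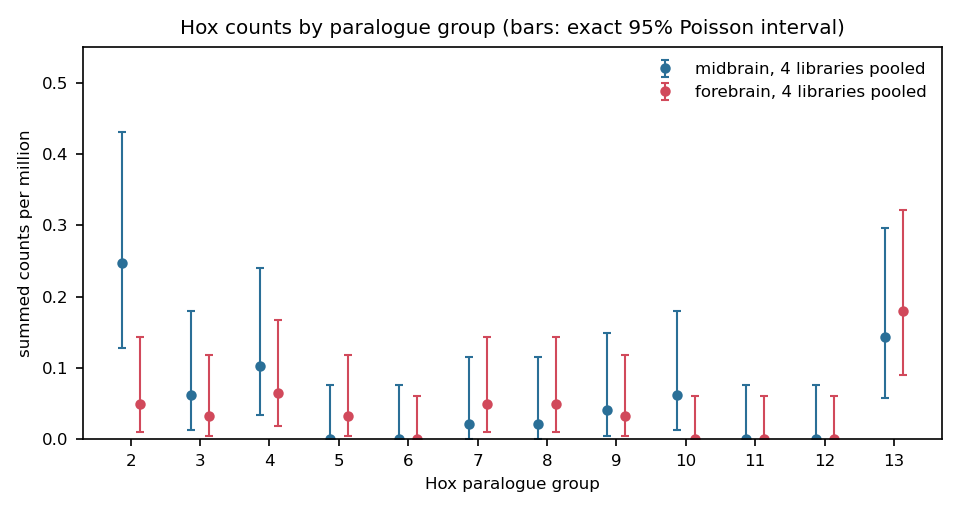
Summed CPM of each Hox paralogue group (x axis, 2 to 13) over the 4 midbrain and the 4 forebrain libraries, with exact 95% Poisson intervals as bars. The intervals of the tissues overlap in each group shown, and groups 6, 11 and 12 lie at 0 in both.

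The scarcity of counts covered whole clusters. By position in RefSeq on GRCm38.p6, HoxA (chr6:52155367-52260880) held 20 counts in midbrain and 18 in forebrain, and HoxB (chr11:96194316-96368254) held 15 and 14. HoxC (chr15:102921131-103036856) held 0 and 11, and HoxD (chr2:74668225-74765142) held 7 and 5. Pooled by tissue, the exact Poisson intervals of HoxC were 0 to 0.0758 CPM in midbrain and 0.0897 to 0.321 CPM in forebrain, without overlap. Those of HoxA, HoxB and HoxD overlapped between the tissues. Hoxc13 held 10 of the 11 HoxC counts in forebrain. Each stretch below runs from the nearest gene at a level before a cluster to the nearest one after it. Its ends, and the lack of a level between them and the cluster, are therefore set by that rule. In midbrain none of the 21 listed genes between Halr1 and Evx1os, a stretch of 194.7 kb around HoxA, reached a level. The corresponding stretch around HoxB was 388.9 kb with 19 genes, from Atp5g1 to Skap1. Those around HoxC and HoxD were 431.1 kb with 15 genes from Calcoco1 to Smug1 and 164.3 kb with 14 genes from Evx2 to Mtx2. Skap1 was an end with only 10, 3, 7 and 4 counts in midbrain. In forebrain Gm53, beside Hoxb9, reached a level within the HoxB stretch, no gene did in the HoxC stretch, and around HoxD the stretch without a level ran 246.4 kb from Lnpk to Mtx2.

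**Figure D4:**
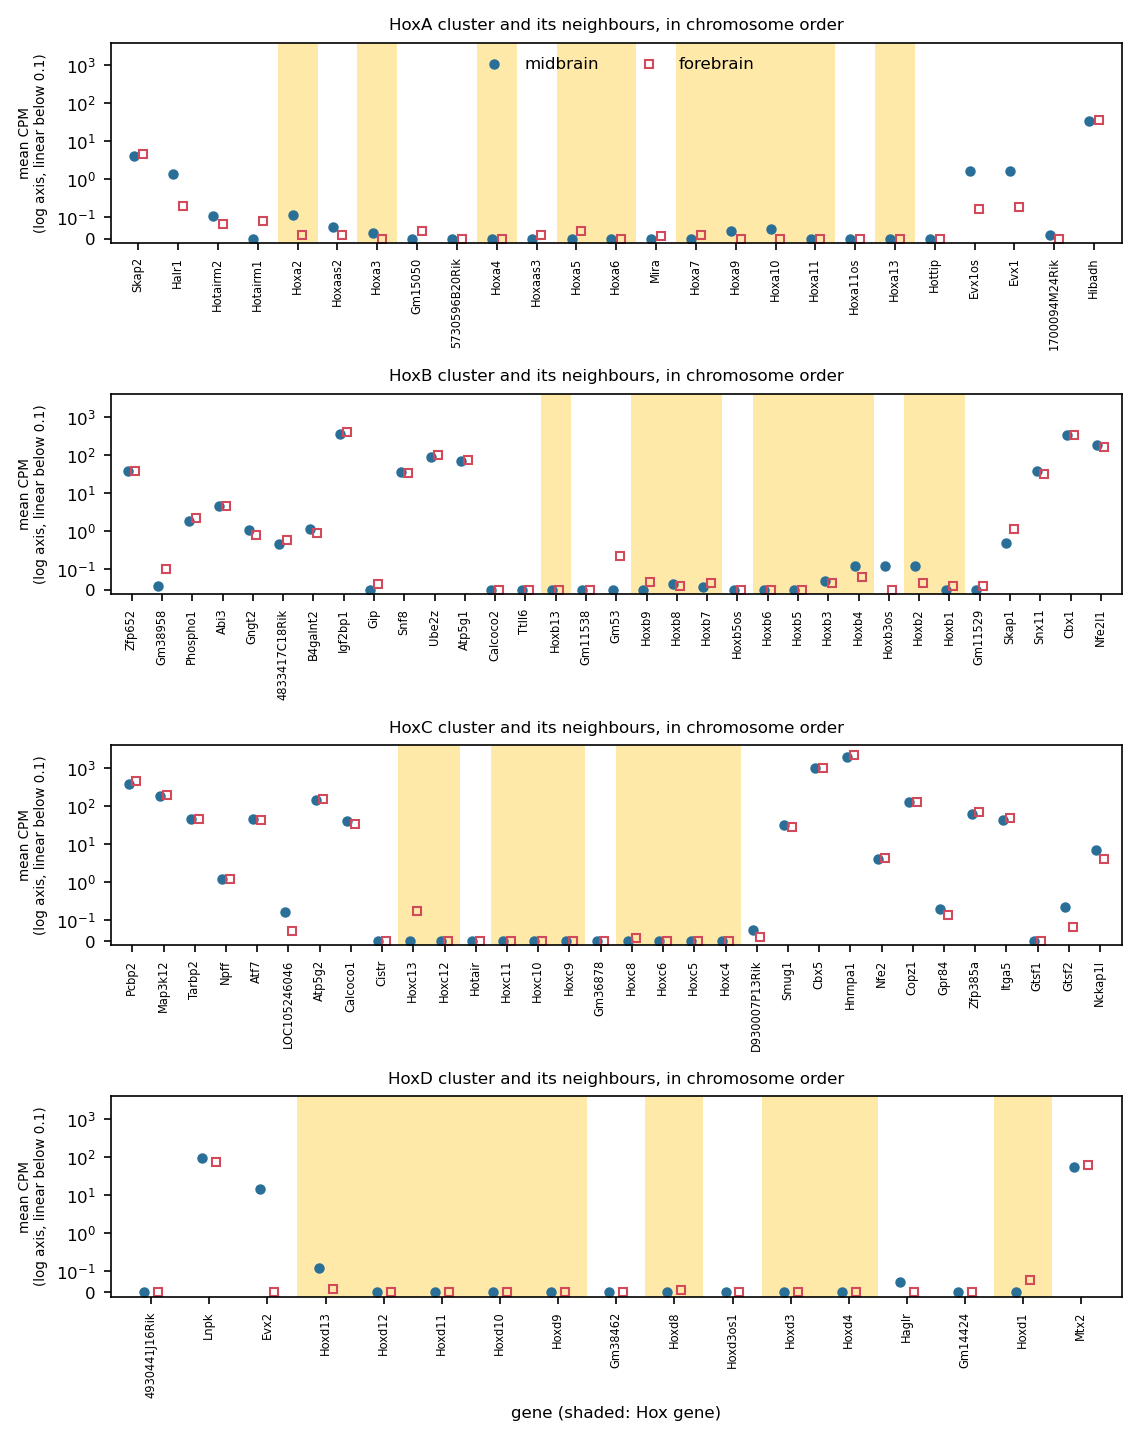
Mean CPM over 4 midbrain (filled circles) and 4 forebrain libraries (open squares) for the genes of each Hox cluster and its neighbours, in chromosome order, on an axis that is logarithmic above 0.1 and linear below. Hox genes are shaded; they lie near 0 while most neighbours lie above 1, and Evx2, Evx1, Evx1os and Halr1 are higher in midbrain.

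Most genes beside the clusters were counted, and some of them differed between the tissues. Of the 24 protein-coding genes that are the 3 next outside each cluster on either side, 22 reached a level in midbrain and 20 in forebrain, while Calcoco2 and Ttll6, the 2 nearest HoxB on one side, had 0 counts in all 8 libraries. Between the tissues over both genotypes, edgeR's quasi-likelihood test (adjusted p under 0.05) called 44.3% of 15383 genes tested, and 21.6% as higher in midbrain. Of the neighbours 22 were tested, 6 were higher and 6 lower in midbrain. Tax1bp1 lost the call without wild-type midbrain replicate 1, hs654 knockout replicate 2 or wild-type forebrain replicate 1 (edgeR's adjusted p up to 0.0886). Snx11 lost it without replicate 2 of wild-type midbrain, wild-type forebrain or hs267-853 knockout, or without hs654 knockout replicate 1 (up to 0.0975) and in DESeq2 (0.0647), and Atp5g2 without replicate 1 of either midbrain group (up to 0.0849). The knockouts differ between the tissues, so this comparison sets mixed genotypes side by side.

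Evx2, a homeobox gene of the even-skipped family, lies 6.705 kb from HoxD. It had 242, 156, 129 and 178 counts in midbrain and 0 in all 4 forebrain libraries, so the tissues did not overlap. Its mean level in midbrain was 14.7 ± 3.71 CPM (SD, n = 4). The tissues differed at edgeR's adjusted p = 3.03e-08, and 1.45e-06 between wild-type groups. Pooled over the 4 midbrain libraries, its level was 14.5 CPM. That is 296-fold the 0.0490 CPM that 3 counts over the 4 forebrain libraries would give. Hoxd13, the next gene of the cluster, had 7 counts in the same 4 midbrain libraries.

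Evx1, its paralogue beside HoxA at 52.62 kb, had 14, 21, 27 and 17 counts in midbrain and 2, 4, 2 and 3 in forebrain. That is 1.70 ± 0.611 against 0.187 ± 0.0876 CPM (SD, n = 4 each), or 3.10 on the log2 scale (SE 0.469; edgeR's adjusted p = 0.000144). Evx1os, an antisense gene that overlaps Evx1 and was picked after its values were seen, had 11, 27, 17 and 22 counts in midbrain and 1, 0, 6 and 4 in forebrain. The genes overlap only in part (Evx1os at chr6:52308389-52314832, Evx1 at chr6:52313498-52318389). How reads in the shared stretch were assigned is not given in the sources used here. Halr1, a long non-coding RNA outside the anterior end of HoxA, had 19, 14, 19 and 13 counts in midbrain and 3, 0, 5 and 5 in forebrain, and its log2 difference was 2.81 (SE 0.505, edgeR's adjusted p = 0.000569). The midbrain libraries were all above the forebrain libraries for each of these genes. The share of all genes that separate in this way was not computed, and 21.6% of genes tested were called higher in midbrain.

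**Figure D5:**
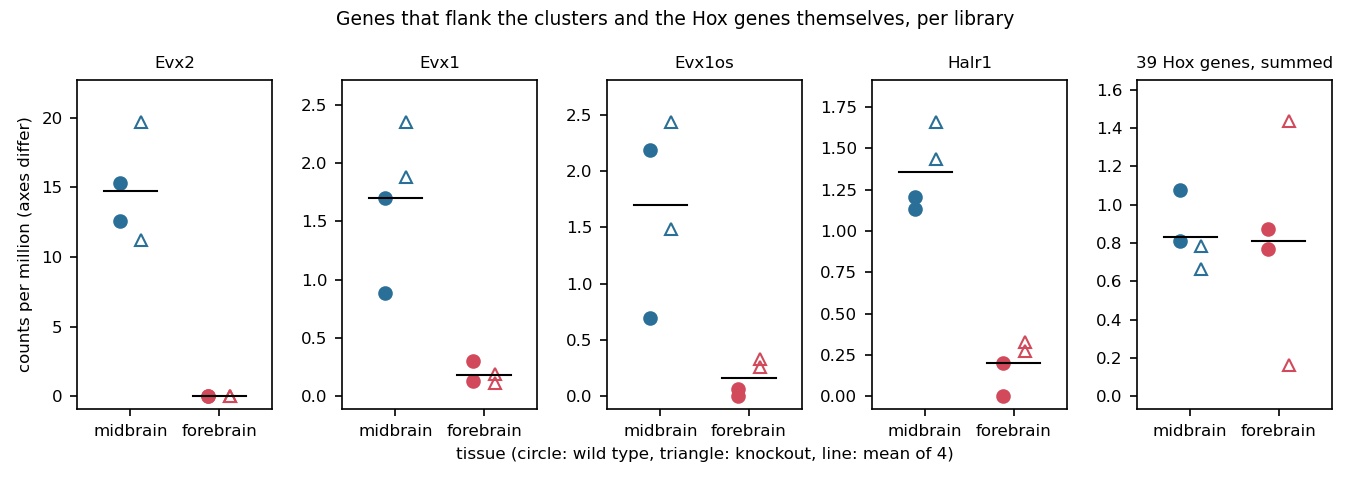
CPM per library for Evx2, Evx1, Evx1os, Halr1 and the 39 Hox genes summed, in midbrain and forebrain (circles wild type, triangles knockout, line the mean of 4, a separate y axis per panel). The 4 flanking genes are higher in every midbrain library, and the Hox sum overlaps between the tissues. Of 24 protein-coding neighbours 6 were called higher and 6 lower in midbrain, and the lower ones are not drawn.

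Few reads were counted in the other non-coding genes of the clusters. Of 19 on the list 17 were rows of the tables, 11 of them with 0 counts in all 8 libraries, among them Hotair, Hottip and the 6 microRNA genes of the clusters, whose mature products poly(A) libraries do not capture. Halr1 alone was tested. Hoxb3os, antisense to Hoxb2 and Hoxb3, had 3, 2, 0 and 1 counts in midbrain and 0 in forebrain. Of the 39 Hox genes 18 overlap another listed gene and 11 of those had 0 counts everywhere. Of the 21 that overlap none, 9 had 0 counts everywhere and the highest total was 10 counts, for Hoxc13.

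No Hox gene passed the filter on low counts, so 0 of 39 were tested and 0 were called in any of the 5 comparisons. The percentage of all tested genes called was 29.6% between wild-type tissues, 44.3% between tissues over both genotypes, 0% for the hs654 knockout, 0.013% for the hs267-853 knockout and 0.0065% for the difference between the knockout effects. For the hs654 knockout edgeR had 609 genes (3.96%) at an unadjusted p under 0.05, and DESeq2 called 0. Without the filter edgeR could fit 19 Hox genes and called 0 of them in each comparison. One unadjusted p was under 0.05, that of Hoxc13 between tissues over both genotypes (0.0384, adjusted 0.0971), and DESeq2 gave no Hox gene an unadjusted p under 0.05. The smallest unadjusted p between wild-type tissues was 0.0776 for Hoxd13 (adjusted 0.216). For the hs654 knockout the smallest was 0.110 (adjusted 1), for Hoxd13, with 5 and 2 counts in wild-type and 0 and 0 in knockout midbrain. These tests thus detected no difference between groups in any Hox gene, and what size of difference they could detect at such counts was not tested.

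Between genotypes the Hox counts were as low. Wild-type midbrain had 27 Hox counts in 2 libraries and hs654 knockout midbrain 15, or 0.959 and 0.731 CPM. Wild-type forebrain had 23 and hs267-853 knockout forebrain 25, or 0.824 and 0.750 CPM. The knockout forebrain libraries stood apart from each other, with 3 Hox counts in replicate 1, 0.166 CPM (0.0343 to 0.486), and 22 in replicate 2, 1.44 CPM (0.900 to 2.18). Replicate 1 was the deepest library of all 8. Its summed level of 8 mesenchyme markers was also the lowest, at 1173 CPM against 1343 to 2093 CPM in the others. Wild-type midbrain replicate 1, the next lowest at 1343 CPM, had 17 Hox counts, or 1.08 CPM. The part of mesenchyme in the Hox counts was not tested. No gene of the lists below was called in either knockout comparison.

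Transcripts of proteins that work with Hox proteins were counted in both tissues. All 9 Hox cofactors of the Pbx, Meis and Pknox families, homeodomain proteins that bind DNA together with Hox proteins, reached a level in both tissues and were tested. In midbrain 5 were higher, 2 lower and 2 were not called, with a median log2 difference of 0.25 against -0.01 over all tested genes. Meis3 was at 52.6 ± 2.53 CPM in midbrain and 36.9 ± 1.55 CPM in forebrain (SD, n = 4 each, log2 difference 0.48), and Pbx3 was at 84.9 ± 4.41 and 59.0 ± 6.79 CPM (0.49). Meis2 was lower, at 113 ± 4.26 against 165 ± 28.1 CPM (-0.58).

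Regulators known to act upstream of Hox genes were mixed. Of 18, 11 were tested, 3 were higher in midbrain, 2 lower and 6 not called, a share called near the 44.3% of all tested genes. Cyp26b1, which degrades retinoic acid, was at 27.8 ± 5.12 CPM in midbrain and 5.62 ± 1.01 CPM in forebrain (log2 difference 2.28), and the retinoic acid receptor Rarg was at 11.6 ± 2.35 and 29.7 ± 10.1 CPM (-1.34). The caudal-family activators of posterior Hox genes, Cdx2 and Cdx4, had 0 counts in all 8 libraries, and Cdx1 had 1 count in 1 midbrain library and 3 in 1 forebrain library. Among 13 other homeobox genes of Hox-like families 7 were tested, 5 were higher in midbrain and 2 lower. Gsx1 was at 13.6 ± 2.56 CPM in midbrain and 2.40 ± 0.148 in forebrain, and Gsx2 was at 0.459 ± 0.247 and 17.7 ± 4.03 CPM. Of 72 homeobox and paired-box genes of 10 other families, a set added after the data were seen, 56 reached a level in midbrain and 48 in forebrain. Of all genes, 64.2% did in each tissue.

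All 14 Polycomb subunits and all 7 Trithorax subunits of the lists reached a level in both tissues, against 64.2% of all genes in each. Of the Polycomb subunits 1 was higher in midbrain, 4 were lower and 9 were not called, where 44.3% of all tested genes were called. Ezh2, which methylates histone H3 in silent genes, was at 254 ± 10.1 CPM in midbrain and 301 ± 4.10 CPM in forebrain (SD, n = 4 each, log2 difference -0.27). Its relative Ezh1 was higher, by 0.36, but not called without hs654 knockout replicate 1 (0.33, adjusted p = 0.0552 in edgeR). Of the Trithorax subunits Kmt2a was higher in midbrain (0.26), 4 were lower and 2 were not called. Ash2l, at -0.15, lost its call without replicate 1 or 2 of wild-type midbrain, replicate 1 of either knockout or replicate 2 of wild-type forebrain (adjusted p up to 0.133 in edgeR) and in DESeq2 (0.0506).

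Marker lists were checked against the labels. All 7 midbrain markers were higher in midbrain and all 8 forebrain markers lower. Of 11 hindbrain markers that are not Hox genes, 8 reached a level in midbrain and 4 in forebrain, 6 were tested and 4 were higher in midbrain. Their summed level was 24.3 to 36.6 CPM in midbrain libraries and 11.7 to 15.6 CPM in forebrain libraries. Among the 4 were Tlx3 (31, 59, 49 and 38 counts in midbrain), Atoh1 (6, 29, 32 and 30) and Gbx2 (161, 110, 145 and 119). Egr2, which marks hindbrain segments and activates Hox genes there, had 0 counts in all 4 midbrain libraries. How far hindbrain cells contributed to the few Hox counts was not tested. Of all genes tested, 44.3% were called between the tissues over both genotypes, and 21.6% as higher in midbrain. For cells outside the neural tube, 1 of 8 mesenchyme markers was higher in midbrain and 3 lower. The call was lower for 3 of 6 erythroid and 2 of 5 endothelial markers, and higher for 3 of 5 macrophage markers. Of these, Gata1, Kdr, Pecam1 and Tyrobp were not called without wild-type midbrain replicate 1 (adjusted p 0.0509 to 0.0868 in edgeR), and Hba-x was not called without wild-type forebrain replicate 1 (0.0799) or hs654 knockout replicate 2 (0.108). Gata1, Kdr and Pecam1 also lost the call without other single libraries, at up to 0.126. In DESeq2, Pdgfra (adjusted p = 0.0781), one of the 3 mesenchyme markers, Hba-x (0.157), Gata1 (0.0857) and Pecam1 (0.0630) were not called.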

How the data were processed

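Of 29 samples the 8 RNA-seq libraries were used, and their titles gave tissue, genotype and replicate. The authors deposited raw counts per gene symbol with no normalization. The submitters' processing notes name STAR, HTSeq, DESeq2 and the build mm10, and strand and annotation are not given in the sources used here. Rows that name no gene (5 per table) were left out. As a share of gene, no-feature and ambiguous counts, no feature held 55.4% to 58.9% and ambiguous reads 0.431% to 0.488%. Total counts in genes ran from 9051632 to 18024406.

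CPM used these totals. Fold changes came from edgeR 4.0.16 in R 4.3.3: filterByExpr (15383 genes kept), TMM scaling (factors 0.978 to 1.01), quasi-likelihood F-tests, two-sided, with 1 mean per group over all 8 libraries and Benjamini-Hochberg adjustment. The procedure was tested on simulated data. Where nothing says that replicates came from separate litters, p-values measure only the spread between pools. Some genes are not reported here. Hox genes were described by their counts. From each list, called members were named by size of change, at most 5. The members and lists were chosen with earlier results of these data known. Positions and promoters came from RefSeq GRCm38.p6, the same build as mm10. Alternatives were RLE scaling, no filter, DESeq2 1.42.0, a minimum mean of 50 counts, a replicate block, each tissue alone, each library left out, and other definitions of a level.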

Additional observations from a re-analysis of the deposited data

How the results depend on the processing

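In the 5 comparisons 0 Hox genes were called under every alternative run, and most alternatives tested none of them. With at least 1 count in 2 of 4 libraries as the rule, 5 Hox genes and 5 paralogue groups reached a level in midbrain, and 5 genes and 5 groups did in forebrain. With at least 10 counts, at least 0.5 CPM, or more than 3 counts in all 4 libraries, the forebrain number fell from 1 to 0 for genes and groups, and midbrain stayed at 0. The number of Hox genes with at least 1 count per library was 7, 4, 4 and 5 in midbrain and 7, 5, 3 and 8 in forebrain, against 1, 1, 1, 0, 1, 0, 0 and 2 above 3 counts, and 0 in each at 10 counts or 0.5 CPM. Leaving out each library in turn, chosen after seeing the data, gave 0 to 1 in forebrain, with 0 without wild-type forebrain replicate 1 or hs267-853 knockout replicate 2. Replicates of the same number did not deviate together over genes (correlations of replicate differences 0.0432, -0.0188 and -0.000307). Such correlations cannot show whether they shared a litter or batch. With the replicate block 0 Hox genes were called. Hbb-y, an erythroid marker, had a log2 difference of 0.29 between wild-type tissues and 0.04 over both genotypes. Leaving out single libraries gave -0.27 to 0.69 and -0.24 to 0.24, negative without wild-type midbrain replicate 1.

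Over all genes, leaving out the filter gave 22 calls for the hs654 knockout, 161 for the hs267-853 knockout and 111 for the difference, against 0, 2 and 1. DESeq2 gave 13 and 4 for the last pair, and each tissue alone gave 1 call per knockout. Without single libraries these counts ran over 0 to 8, 1 to 209 and 0 to 64, and those of the wild-type tissue comparison over 2816 to 5285. Evx2 was called between tissues over both genotypes under every alternative, and Evx1, Evx1os and Halr1 under every one but a minimum mean of 50 counts, at which they were not tested. Between wild-type tissues Evx1 lost its call without midbrain replicate 2 (adjusted p = 0.115) or forebrain replicate 1 (0.124), and Halr1 without forebrain replicate 2 (0.0603), in edgeR. The depth limits what can be said of a Hox gene to the bounds given with its counts.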
